A study of Mus musculus with 8 samples.

Results

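The genes described here are the semaphorins of vertebrate classes 3 to 7, their plexin receptors and the neuropilin co-receptors, in astrocytes sorted from the mouse spinal cord. They were taken by symbol from the authors' deposited comparison (names starting with Sema3 to Sema7 or Plxn, and Nrp1 and Nrp2) and joined by Ensembl identifier to the count tables. The rule found 32 of 39179 genes, namely 20 semaphorins, 9 plexins, 2 neuropilins and Plxna4os1, an RNA transcribed opposite Plxna4. The rule itself uses names and no measured value. The libraries came from mice at postnatal days 12 to 14 of a mixed Swiss-Webster strain, and all carried the Aldh1l1-GFP reporter by which astrocytes were collected in a flow sorter. The 4 control libraries (S1, S2, S6 and S7) came from cre-negative animals labelled wild-type, and whether these carried floxed alleles is not stated. The 4 conditional knockout libraries (cKO S3, S4, S5 and S8) came from animals with Aldh1l1-cre and floxed Kir4.1, an inward rectifier for potassium and the product of Kcnj10. The same gene, Aldh1l1, therefore directs the reporter used for sorting and the recombinase. The series calls the libraries biological replicates, and the labels do not say how many animals each holds.

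Semaphorins are guidance proteins that carry a sema domain. Class 3 members are secreted, classes 4 to 6 span the membrane, and class 7 is held at the surface by a lipid anchor. They act through plexins, whose intracellular part is a GTPase-activating domain that lowers the activity of small GTPases and so changes the cytoskeleton and adhesion of the receiving cell. Most class 3 members need a neuropilin as the binding subunit beside an A-type plexin, class 4 members often bind B-type plexins, class 6 members bind A-type plexins, and Sema7a binds Plxnc1 and integrins. In the spinal cord, Sema3a made by ventral astrocytes is known for its part in the placing of motor and sensory neuron axons and synapses.

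The targeted gene was at 1820 CPM ± 468 in control libraries and 34.0 CPM ± 4.64 in cKO libraries (SD, n = 4 each), where CPM are counts scaled to library size and composition. No cKO library reached any control library for Kcnj10, by an exact 2-sided permutation test p = 0.0286, the smallest that 4 against 4 libraries can give. Gene reads numbered 13892736 to 25065686 per library. Of these, 36.7% to 43.1% in controls and 31.6% to 42.2% in cKO fell on transcripts like ribosomal RNA. The summed level of 12 astrocyte markers was 16980 to 25060 CPM in controls and 19761 to 24255 CPM in cKO. Of the 12, Aldh1l1 and Aqp4 rose, with log2 fold changes of 1.01 and 1.09 and edgeR adjusted p of 0.0179 and 0.0243, and the other 10 did not pass the test. Oligodendrocyte markers (12 genes) summed to 1585 to 3121 CPM in controls and 1056 to 2525 CPM in cKO, and markers of oligodendrocyte precursors (OPC, 7 genes) to 508 to 1403 CPM and 578 to 694 CPM. Fibroblast markers summed to 122 to 615 CPM and 98.8 to 172 CPM. Neuronal, microglial, endothelial and mural lists stayed at 82.9 CPM or less in every library, and 0 of their genes were at 0 in all libraries. Fewer cells of a type and less RNA per cell cannot be told apart in such sorted bulk samples.

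Among all 14757 genes tested by edgeR's quasi-likelihood test, 47 (0.318%) had a Benjamini-Hochberg adjusted p under 0.05, whereas 0 of the 28 tested semaphorins, plexins and neuropilins did. Plxnb2 came nearest. At an unadjusted p under 0.05 there were 5 of 28 members (17.9%), against 9.81% of all genes. Of these 5, Plxnb2, Nrp1, Sema3a and Sema6c (4 of 28, against 5.03% of all genes) were higher in cKO and Plxnb1 (1 of 28, against 4.77%) was lower. DESeq2 on the same counts called 1 member, Plxnb2, against a background of 2.49% of genes called, and limma-voom called 0, where it called 0.325% of all genes. At an unadjusted p under 0.05, DESeq2 had 7 of these 28 members and limma-voom 8, against 8.98% and 10.6% of all genes. The DESeq2 share is over 23932 genes with a p, a wider set than the 14757 genes tested by edgeR and limma-voom. Plxnb2 was also the 1 member called by edgeR with all genes of at least 1 count in any library (0.359% of genes called), with those of at least 10 counts in every library (0.71%) and with scaling to library totals (0.42%). Of the 25 members given an adjusted p in the authors' deposited table, 1 passed, again Plxnb2, where 2.87% of all genes with an adjusted p did. The groups' libraries did not overlap for 3 members (10.7%), Plxnb2, Plxnb1 and Sema6c, against 6.34% of all tested genes. Plxnb2 and Sema6c were the 2 higher in cKO (3.39% of all genes) and Plxnb1 the 1 lower (2.94%). The fitted log2 fold change was below 0 for 17 of 28 members and for 51.6% of all tested genes, with a median of −0.29 over the members and −0.02 over all genes. The 4 members left untested for low counts were Sema3b, Sema3f, Sema3g and Plxna4os1.

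The 250 bases before the transcription start are printed for 4 members that the comparison turns on. These are the 2 B-type plexins whose libraries did not overlap in opposite directions, the neuropilin with the lower p, and the ligand Sema3a. They are the RefSeq sequences on GRCm38.p6, in which 26 of the 32 members had an entry, and for Plxnb2 the outer of 2 listed starts was taken. Each is read 5′ to 3′ on the strand of its gene: Plxnb2 at chr15:89180789-89181038 on the minus strand, Plxnb1 at chr9:109095186-109095435, Nrp1 at chr8:128358823-128359072 and Sema3a at chr5:13396534-13396783, the last 3 on the plus strand. Capitals mark GC boxes, GGGCGG on either strand.
Plxnb2: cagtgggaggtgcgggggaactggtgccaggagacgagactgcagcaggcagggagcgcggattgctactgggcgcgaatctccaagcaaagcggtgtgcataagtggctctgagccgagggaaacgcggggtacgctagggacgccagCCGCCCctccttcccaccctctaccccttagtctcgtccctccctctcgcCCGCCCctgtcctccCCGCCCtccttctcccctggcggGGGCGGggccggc
Plxnb1: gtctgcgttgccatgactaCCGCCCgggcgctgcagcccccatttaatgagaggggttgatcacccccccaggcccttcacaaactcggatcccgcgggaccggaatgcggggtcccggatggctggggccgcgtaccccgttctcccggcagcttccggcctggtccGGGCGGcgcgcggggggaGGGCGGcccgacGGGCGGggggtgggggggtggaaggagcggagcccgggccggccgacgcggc
Nrp1: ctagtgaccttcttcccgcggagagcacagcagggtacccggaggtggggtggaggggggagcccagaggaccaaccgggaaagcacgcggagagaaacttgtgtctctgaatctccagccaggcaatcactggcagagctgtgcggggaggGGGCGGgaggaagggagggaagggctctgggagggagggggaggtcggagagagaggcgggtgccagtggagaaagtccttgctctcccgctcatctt
Sema3a: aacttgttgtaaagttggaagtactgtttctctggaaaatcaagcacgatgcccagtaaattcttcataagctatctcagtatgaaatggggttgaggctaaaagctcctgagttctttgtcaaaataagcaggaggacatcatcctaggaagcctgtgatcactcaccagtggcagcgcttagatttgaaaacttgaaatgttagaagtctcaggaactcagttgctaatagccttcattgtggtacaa
GC boxes were found 4 times before Plxnb2, 4 times before Plxnb1, once before Nrp1 and 0 times before Sema3a, and 32.7% of 32851 listed promoters of the same length hold at least 1. CpG dinucleotides numbered 20, 30, 11 and 2 in the same order, against a median of 6. Searched on both strands, the CCAAT box (CCAAT, in 33.9% of listed promoters), the CRE (TGACGTCA, 1.55%), the TATA box (TATAAA, 12.4%), the AP-1 motif (TGANTCA, 6.75%) and the E-box (CACGTG, 6.02%) matched none of these 4 windows. The RefSeq start of Sema3a, at 13396784, lies inside the gene as GENCODE M21 annotates it, from 13125414 to 13602565 on chromosome 5. Nrp1 is annotated from 128358604, so its whole window also lies inside the annotated gene. Plxnb1 is annotated from 109095389, so the end of its window overlaps the annotated gene. Which start the libraries used was not tested.

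Levels per transcript length were read from the deposited FPKM values, which scale fragments to length and depth. The columns of that table match the libraries of their group but not always the library they are named after, so they are given as group values only. Sema6d, a class 6 ligand of A-type plexins, had the highest level of the family, 176 FPKM ± 26.1 in control columns and 204 FPKM ± 19.1 in cKO columns (SD, n = 4 each). It stood above 98.5% of all genes with an FPKM above 0 and made up 38.0% of the summed semaphorin FPKM of controls and 44.98% of that of cKO. Sema4a and Sema4b, both class 4 membrane proteins, followed with 113 FPKM ± 16.96 and 78.3 FPKM ± 21.4 in controls (SD, n = 4 each). Their control ranges, 94.2 to 132 and 46.7 to 93.4 FPKM, did not overlap, and in cKO, at 51.1 to 99.3 and 70.9 to 94.9 FPKM, they overlapped.

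Plxnb1 was the plexin with the highest FPKM, at 60.2 FPKM ± 7.81 in controls (SD, n = 4) and 51.1% of the plexin sum, followed by Plxnb3 and Plxnb2 at 13.0% and 12.4%. In cKO Plxnb1 made up 40.5% of the plexin sum and Plxnb2 23.2%. Nrp1 made up 69.1% of the 2 neuropilins' summed FPKM in controls and 72.7% in cKO. The secreted class 3 ligands were low by comparison. Sema3d, the highest of the 7 in controls, lay between 2.205 and 3.87 FPKM there, and Sema3b, Sema3c, Sema3e, Sema3f and Sema3g were each below 1 FPKM on average in both groups.

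**Figure D1:**
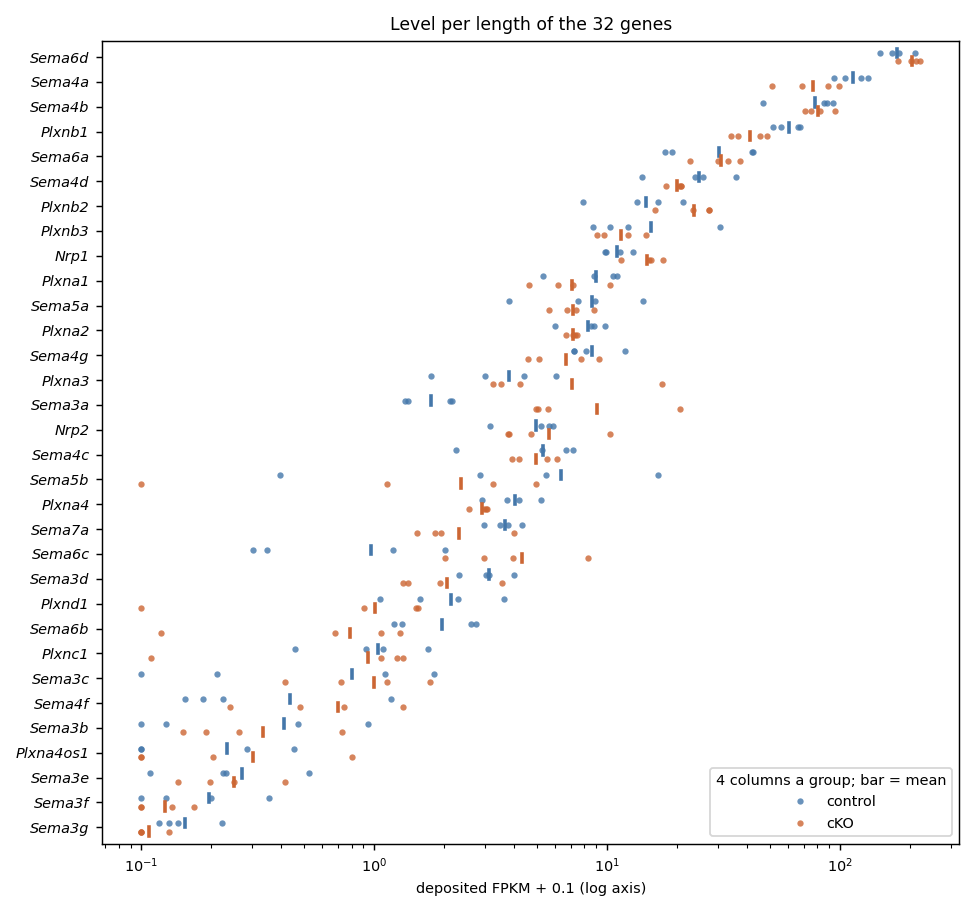
Deposited FPKM plus 0.1 on a log axis for all 32 genes, 4 columns a group as points and group means as bars, ordered by mean level. Sema6d, Sema4a, Sema4b and Plxnb1 lead, and 5 class 3 semaphorins lie below 1 FPKM on average.

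Among the B-type plexins, the receptors of class 4 semaphorins, Plxnb2 and Plxnb1 stood in opposite directions. Plxnb2 (chromosome 15, 89155549 to 89180788, minus strand) was at 43.3, 32.1, 33.5 and 35.1 CPM in the controls (libraries S1, S2, S6, S7) and at 53.5, 78.9, 79.7 and 70.1 CPM in the cKO (libraries S3, S4, S5, S8). This order is kept for all genes. Every cKO library was above every control library, and cKO S3 lay nearest to the controls. The fitted log2 ratio of cKO to control was 0.97 ± 0.19 (standard error), a 1.96-fold higher level, and the adjusted p of edgeR's quasi-likelihood test was 0.0533, just short of the threshold of 0.05. DESeq2 gave an adjusted p of 0.000296 with a log2 fold change of 0.97, and the authors' deposited table gave 0.000234 with a log2 fold change of 0.91. Without cKO S3 the edgeR adjusted p was 0.0397, and over the 8 fits that left out 1 library it ranged from 0.0397 to 0.232. With the deposited FPKM the groups overlapped, at 7.78 to 21.1 FPKM in controls and 16.0 to 27.5 FPKM in cKO, and limma gave an adjusted p of 0.741 on log2(FPKM + 0.1).

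Plxnb1 (chromosome 9, 109095389 to 109119917) is the receptor of Sema4d and can recruit RhoA exchange factors. It was at 449, 445, 365 and 352 CPM in the control libraries and at 307, 251, 242 and 330.02 CPM in the cKO libraries. All cKO libraries were below all control libraries, also in FPKM, at 51.5 to 67.4 in controls and 33.9 to 48.7 in cKO. The fitted log2 ratio of cKO to control was −0.51 ± 0.16 (standard error) and an edgeR adjusted p of 0.275, which over all alternatives lay between 0.0797 and 0.583. An exon of Plxnb1 overlaps Gm7628 on the other strand, and without a stated strand setting their reads cannot be told apart. In each library the ratio of Plxnb2 to Plxnb1 counts does not depend on scaling. It was 0.0964, 0.0721, 0.0917 and 0.0996 in controls and 0.174, 0.315, 0.329 and 0.212 in cKO, so the lowest cKO ratio exceeded the highest control ratio. Because the libraries of both genes did not overlap, in opposite directions, this separation of the ratio was fixed in advance and adds no support. This ratio was chosen after the values of both genes were seen and was not tested, and it does not say that one of them is unchanged.

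Plxnb3, the third B-type plexin, a receptor of Sema5a that is known in the oligodendrocyte lineage, was at 42.7, 35.7, 51.4 and 139.9 CPM in controls and at 57.7, 41.1, 38.0 and 47.0 CPM in cKO. Only control S7 stood apart. With control S7 the log2 fold change was −0.56, and without it 0.09. The OPC markers summed to 1403 CPM in control S7 and to 508 to 890 CPM in the other controls, and 4 of the 7 were highest there. Their part in the Plxnb3 value was not tested.

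The A-type plexins serve class 3 ligands together with neuropilins and bind class 6 ligands directly. Of the 4, 3 had a log2 fold change below 0 and 0 had an unadjusted p under 0.05 by edgeR, whereas DESeq2 gave 2 such genes, Plxna2 and Plxna4, with no adjusted p under 0.05. Plxna1, the receptor of Sema6d, was at 45.6, 29.3, 57.8 and 42.2 CPM in controls and 24.98, 39.2, 35.4 and 50.1 CPM in cKO, with wide overlap. Plxna2, which binds Sema6a, was at 32.01, 38.5, 49.7 and 57.5 CPM in controls and at 30.4, 29.7, 29.8 and 38.7 CPM in cKO. Of the cKO libraries 3 lay below all controls, and cKO S8 did not. Its fitted log2 ratio of cKO to control was −0.47 ± 0.22 (standard error) and an edgeR adjusted p of 0.515.

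Plxna4, another receptor of Sema6a and a partner of neuropilins, ranged from 25.7 to 47.6 CPM in controls and from 22.7 to 27.5 CPM in cKO, with a log2 fold change of −0.47. Plxna3 ranged from 9.06 to 20.5 CPM and from 10.8 to 22.1 CPM. The antisense Plxna4os1 had at most 26 counts, and exons of Plxna4 and Plxna1 overlap other annotated genes, Plxna4os3 and Gm26811.

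Plxnc1, the receptor of Sema7a, and Plxnd1, the receptor of Sema3e that is best known in blood vessels, were the plexins with the lowest levels. Plxnd1 was at 4.37, 5.53, 10.2 and 9.66 CPM in controls and at 6.18, 1.81, 0 and 2.74 CPM in cKO. A count of 0 in cKO S5 allows up to 3 counts, or 0.171 CPM, a limit that covers counting error only. Its log2 fold change of −1.47 had a standard error of 0.86 and an edgeR adjusted p of 0.617. Endothelial markers (9 genes) summed to 44.3 to 73.6 CPM in controls and to 57.6, 24.3, 34.9 and 28.7 CPM in the cKO libraries, and 5 of the 9 were lowest in cKO S5. Their part in the Plxnd1 values was not tested. Plxnc1 was at 2.03, 6.19, 10.00 and 4.31 CPM in controls and at 5.52, 3.67, 0.114 and 6.93 CPM in cKO, low only in cKO S5.

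**Figure D2:**
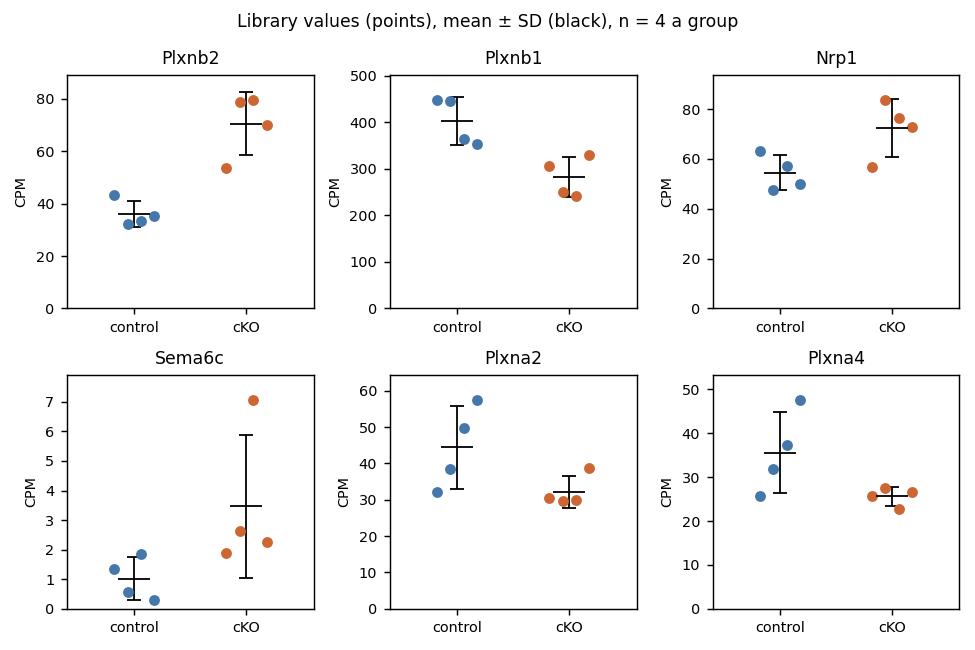
CPM of 6 receptors and ligands by library, points in the order S1, S2, S6, S7 and S3, S4, S5, S8, with mean and SD in black (n = 4 a group) on axes that start at 0. The groups do not overlap for Plxnb2, Plxnb1 and Sema6c, and they do for Nrp1, Plxna2 and Plxna4.

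The neuropilins hold the binding site for class 3 semaphorins and also bind VEGF. Nrp1 (chromosome 8, 128358604 to 128503363), the subunit through which Sema3a binds, was at 63.2, 47.5, 57.1 and 49.97 CPM in controls and at 56.6, 83.8, 76.4 and 72.8 CPM in cKO. In 3 of 4 cKO libraries it was above all controls, and cKO S3 was within the control range. The fitted log2 ratio of cKO to control was 0.41 ± 0.18 (standard error) and an edgeR adjusted p of 0.466. Nrp2, which prefers other class 3 members such as Sema3f, was at 13.6, 18.7, 20.7 and 23.5 CPM in controls and 18.1, 16.2, 36.4 and 15.1 CPM in cKO. The single high library, cKO S5, sets its direction, with a log2 fold change of 0.16 with all libraries and −0.21 without cKO S5. The exon overlap of Nrp1 with Mir1903 is on the same strand, so their reads are not separated.

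The secreted class 3 ligands had 4 tested members of 7. Sema3a was at 7.03, 4.51, 2.69 and 5.97 CPM in controls and at 7.30, 11.4, 5.64 and 14.6 CPM in cKO. Of the cKO libraries 3 were above all controls, and cKO S5 lay inside the control range. The fitted log2 ratio of cKO to control was 0.95 ± 0.42 (standard error), a 1.93-fold higher level, with an edgeR adjusted p of 0.488. The authors' deposited table gave 0.72 with an adjusted p of 0.262. DESeq2 1.42.0 on the counts gave 0.94 with an adjusted p of 0.279, so the deposited value does not mean a smaller difference in the counts.

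The deposited FPKM of Sema3a differed more between the groups than its counts did. They lay between 1.26 and 2.07 in control columns and at 4.85, 4.98, 5.48 and 20.5 in cKO columns, so the groups did not overlap, and the ratio of means was 5.39 against 1.93 in CPM. The log2 difference between these 2 ratios, 1.49, was larger in size than for 99.6% of genes with at least 1 CPM in both groups, where the quartiles were −0.08 and 0.07. Sema3a was the one member of 26 beyond 1. The FPKM ratio and this difference rest in part on the single cKO column at 20.5, and neither was computed without it. In log2(FPKM + 0.1), limma gave a log2 fold change of 2.09 with an adjusted p of 0.461. GENCODE M21 lists 9 Sema3a transcripts of 312 to 5930 bases, and which of them the FPKM were computed over is not given in the sources used here. So the size of the Sema3a difference depends on the deposited measure used, and in FPKM also on 1 column.

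**Figure D3:**
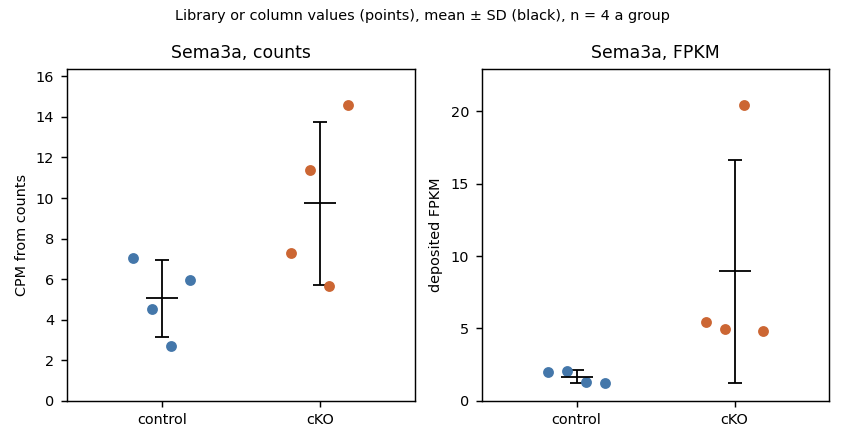
Sema3a as CPM from the count tables (left) and as deposited FPKM (right), each point 1 library or column, with mean and SD in black (n = 4 a group). The groups overlap in CPM, while all 4 cKO columns lie above the controls in FPKM and one of them reaches 20.5.

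Sema3d, a further secreted ligand, was at 11.9, 15.4, 16.1 and 21.1 CPM in controls and 9.76, 6.49, 17.3 and 6.93 CPM in cKO. Here cKO S5 again lay inside the control range, while the other cKO libraries were below all controls. Its fitted log2 ratio of cKO to control was −0.67 ± 0.35 (standard error) and an edgeR adjusted p of 0.558. Sema3c and Sema3e, the latter a ligand that binds Plxnd1 without a neuropilin, stayed at 2.73 CPM or less in every library. Sema3b, Sema3f and Sema3g had at most 31, 8 and 9 counts in any library, too few to be tested.

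The 6 transmembrane class 4 ligands held 0 members at an unadjusted p under 0.05 by edgeR. Sema4b was at 229.9, 222, 119.7 and 258 CPM in controls and 190.3, 256, 202 and 217 CPM in cKO, with control S6 low and a log2 fold change of 0.06. Sema4a, known also as a ligand in the immune system and retina, was at 160.2, 143, 124 and 102 CPM in controls and 118, 118, 101 and 109 CPM in cKO. Its cKO libraries lay at or just below the lower part of the control range, with a log2 fold change of −0.24 and an edgeR adjusted p of 0.682. Sema4d, the ligand of Plxnb1, ranged from 38.8 to 116 CPM in controls, with the highest value again in control S7, and from 51.1 to 55.7 CPM in cKO. Sema4c, a ligand of Plxnb2, ranged from 5.87 to 11.9 CPM and from 3.08 to 9.81 CPM. Sema4g and Sema4f ranged from 24.8 to 42.4 CPM and from 0.165 to 3.32 CPM in controls, and from 16.2 to 33.7 CPM and from 0.428 to 3.90 CPM in cKO.

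The class 5 ligands carry thrombospondin repeats beside the sema domain. Sema5a was at 66.4, 31.6, 79.6 and 129 CPM in controls and 76.4, 64.0, 47.9 and 57.6 CPM in cKO. Sema5b was at 8.24, 0.873, 14.2 and 49.9 CPM in controls and at 9.14, 1.41, 0 and 9.72 CPM in cKO. Both were highest in control S7, the library with the highest OPC marker sum, and without it the log2 fold change of Sema5a was 0.06 against −0.32 with all libraries. For Sema5b it was −0.60 without control S7, against −1.85 with a standard error of 1.10. The part of OPC in the Sema5a and Sema5b values was not tested.

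The class 6 ligands comprised the family's most abundant member. Sema6d (chromosome 2, 124089969 to 124667770) was at 649, 532, 704 and 688 CPM in controls and 586, 755, 909 and 798 CPM in cKO. Of the cKO libraries 3 were above all controls and cKO S3 was not, and the log2 fold change of 0.25 with a standard error of 0.17 had an edgeR adjusted p of 0.682. Sema6a, the ligand of Plxna2 and Plxna4, was at 81.6, 80.3, 183 and 171 CPM in controls and 98.9, 141, 171 and 147 CPM in cKO. Its control libraries fell apart into S1 and S2 on one side and S6 and S7 on the other, with all cKO libraries between control S1 and control S6.

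Sema6c (chromosome 3, 95160457 to 95174024) was at 1.33, 0.582, 1.87 and 0.284 CPM in controls and at 1.89, 2.63, 7.07 and 2.27 CPM in cKO. The groups did not overlap, but the highest control, S6, and the lowest cKO library, S3, were nearly equal, and cKO S5 stood far above the rest. The log2 fold change of 1.76 had a standard error of 0.74 and an edgeR adjusted p of 0.453, and it was 1.16 without cKO S5. Its counts were 6 to 34 in controls and 37 to 124 in cKO. Sema6b ranged from 2.73 to 6.76 CPM in controls and from 0.0570 to 2.91 CPM in cKO, where cKO S5 was again the extreme.

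Sema7a, the lipid-anchored ligand of Plxnc1 and integrins, was at 9.32, 9.83, 6.81 and 8.15 CPM in controls and 4.09, 9.71, 4.62 and 3.51 CPM in cKO. All but cKO S4 were below the controls, with a log2 fold change of −0.64, a standard error of 0.40 and an edgeR adjusted p of 0.642. Across the 28 tested members cKO S5 held the lowest of the 8 values for 8 and the highest for 4, and control S7 the highest for 8. Other libraries came close, as control S2 was lowest for 7, control S6 highest for 6 and control S1 highest for 5. The shares over all genes were not computed. Genes detected were also fewest in cKO S5, 17312 against 17984 to 20470 in the other libraries. Its part in these extremes was not tested.

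**Figure D4:**
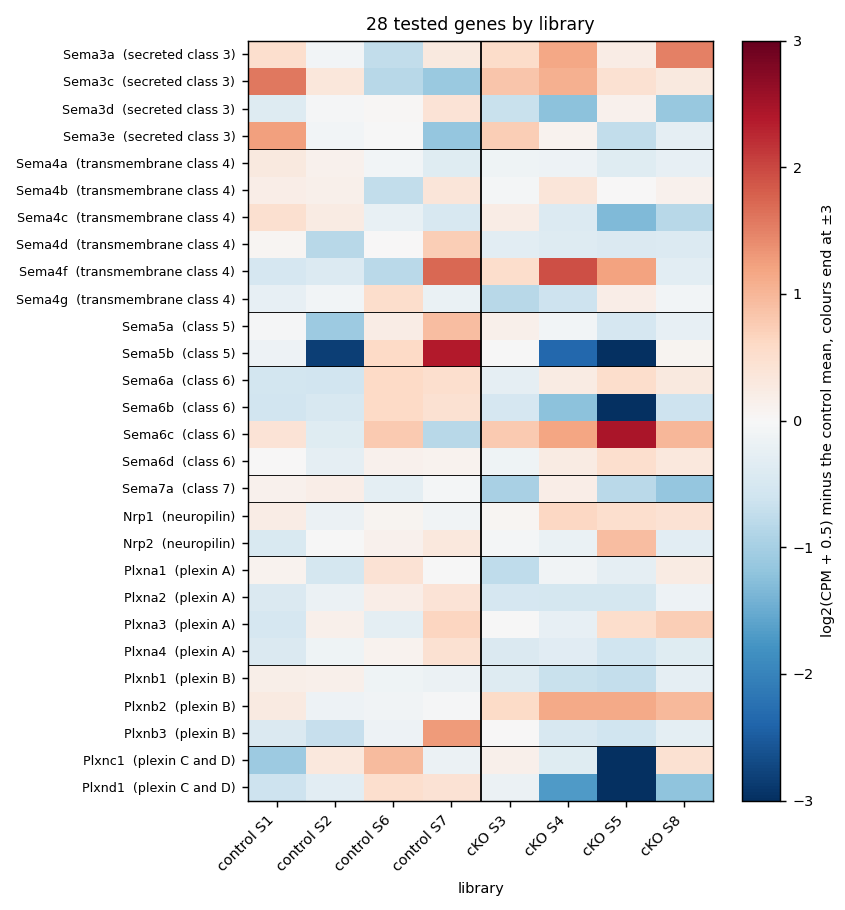
Log2(CPM + 0.5) of the 28 tested genes minus the control mean, by library (columns) and role (rows), with colours ending at 3 in either direction. Plxnb2 is above and Plxnb1 below the control mean in all 4 cKO libraries, and Plxnd1, Plxnc1, Sema6b and Sema5b are lowest in cKO S5.

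**Figure D5:**
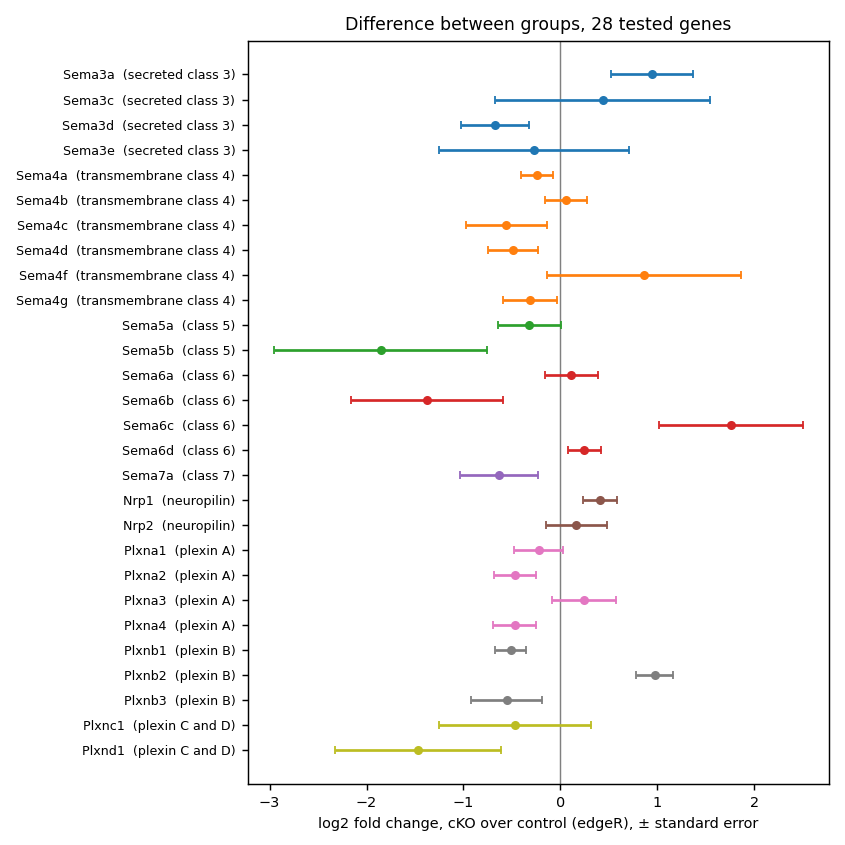
Log2 fold change of cKO over control from edgeR with its standard error for the 28 tested genes, coloured by role. Of the 28, 17 lie below 0, and Plxnb2 at 0.97 has the smallest p.

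Other genes of the pathway were read from a list of co-receptors, plexin effectors, cytoskeletal targets, VEGF ligands and receptors, and extracellular partners. This list was written with earlier results of these data known, so a call within it is no independent result about the pathway. Of 67 genes matched, 58 were tested, of which 1 rose and 0 fell at an adjusted p under 0.05 by edgeR, where 0.318% of all genes passed. Hapln1, the link protein that ties proteoglycans to hyaluronan in the matrix around neurons and is no plexin ligand, was the one that rose. It was at 29.8, 22.4, 26.5 and 33.4 CPM in controls and at 47.8, 74.9, 57.7 and 76.6 CPM in cKO, with no overlap between the groups. Its fitted log2 ratio of cKO to control was 1.19 ± 0.21 (standard error) and an edgeR adjusted p of 0.0344. The call was lost in 6 of the 8 fits that left out 1 library, without control S1, S2 or S6 and without cKO S4, S5 or S8, where the adjusted p lay between 0.0655 and 0.157.

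Of the 58, 9 (15.5%) had an unadjusted p under 0.05 by edgeR, against 9.81% of all genes. Among the 9, 2 were higher and 7 lower in cKO, where 5.03% and 4.77% of all genes were. Arhgef12, a RhoA exchange factor that binds B-type plexins, was at 367, 362, 371 and 291 CPM in controls and 460.1, 477, 520.3 and 522 CPM in cKO, with an edgeR adjusted p of 0.217. Rnd3, a small GTPase of the Rnd group that counters RhoA signalling, was at 13.4, 10.99, 23.8 and 19.1 CPM in controls and 7.76, 6.76, 5.19 and 8.09 CPM in cKO, with an edgeR adjusted p of 0.152. The groups did not overlap for either gene, and DESeq2, which called 2.49% of all genes, gave them adjusted p of 0.0188 and 0.00555. On log2(FPKM + 0.1), limma gave Arhgef12 a log2 fold change of 0.52 with an adjusted p of 0.478, against 0.51 by edgeR on counts. For Rnd3 it gave −0.67 with an adjusted p of 0.788, against −1.27 by edgeR. Over the whole list the groups did not overlap for 6 of 58 genes (10.3%), against 6.34% of all tested genes. The 3 higher in cKO were Hapln1, Arhgef12 and L1cam (3.39% of all genes), and the 3 lower were Rnd3, Itgb1 and Ptk7 (2.94%). Itgb1, an integrin subunit through which Sema7a acts, was lower in all cKO libraries, with a log2 fold change of −0.45 and an edgeR adjusted p of 0.501. Rnd2, Mical2, Dpysl3, Limk2 and Vcan were the others, with log2 fold changes of −0.51, −0.63, −1.42, −0.80 and −0.94 and edgeR adjusted p of 0.252 to 0.470. Dpysl3 and Vcan were highest in control S7, at 142 and 412 CPM, the library with the highest OPC marker sum, whose part was not tested. Without control S7 their log2 fold changes were −0.31 and −0.50.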

How the data were processed

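RNA-seq of 8 libraries of sorted spinal cord astrocytes was analysed. The authors deposited raw counts per Ensembl gene, and the submitters' processing notes name TopHat2 2.0.11, Bowtie2 2.2.3, HTSeq 0.6.1p1 and GRCm38, without settings. The last 5 lines of each count table name no gene, held 56.4% to 61.7% of reads and were left out. The authors also deposited FPKM values (Cufflinks 2.2.1 and Cuffnorm in the notes) for 39171 identifiers. Over 10026 genes, 3 of 8 FPKM columns were closest to the count library that shares their name, and all 8 were closest to a library of their own group. Per the file headers, the deposited comparison (DESeq2 1.14.1 in the notes) holds group means of scaled counts (a signal), a log2 fold change, its standard error and Wald statistic (scores), and p-values with their adjustment. For Plxnb2, Sema3a and Sema5b the deposited log2 fold changes lay nearer to 0 than those of DESeq2 1.42.0 on the counts. For Sema5b they were −0.32 and −1.87, so the deposited sizes are not on the scale of the fits made here.

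Counts were tested with edgeR 4.0.16 (filterByExpr, TMM, quasi-likelihood fit and test, no covariate, R 4.3.3), with Benjamini-Hochberg adjustment over all genes tested and a threshold of 0.05. Log2 fold changes are cKO over control, and their standard errors were taken from the F statistic. DESeq2 1.42.0 and limma 3.58.1 served as alternatives, with others of normalization, filter, FPKM pseudocount (0.1 or 1), Xist level as a covariate, and each library left out. A further alternative left out the transcripts like ribosomal RNA. The fit was tested on simulated data. No pair of libraries differed by as little as sampling noise (chi-square per degree of freedom at least 20.0). Values per library are given for members past the threshold or with groups that did not overlap, for Sema3a, and for the 2 members of each role with the highest mean FPKM. Plxnb3 was added after its values were seen, and the remaining members are given by range. Of the listed pathway genes, Mical3 was left out because 2 identifiers carry its name. Coordinates are from GENCODE M21 on GRCm38. Although the rule uses names alone, the family and the lists were chosen with earlier results of these data known.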

Additional observations from a re-analysis of the deposited data

Results flagged for a closer look

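A single library or column lay far from the other 3 of its group, by the gap to its nearest neighbour relative to the group's range, in 6 of 56 groups of CPM values and in 7 of 56 groups of FPKM values. For normally distributed values such a rule flags about 1 in 20 groups, but CPM and FPKM need not be so distributed. The share over all genes was not computed, so no excess in this family is shown. Both measures come from the same libraries.

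In CPM, control S7 was high for Plxnb3 at 139.9, against 35.7 to 51.4 in the other controls, and for Sema4f at 3.32, against 0.165 to 0.364. Control S6 was high for Sema4g at 42.4, against 24.8 to 27.4. cKO S5 was high for Sema6c at 7.07, where the rest of the cKO group had 1.89 to 2.63, and for Nrp2 at 36.4, against 15.1 to 18.1. cKO S8 was high for Plxna2 at 38.7, against 29.7 to 30.4.

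In FPKM, the column named cKO S5 stood out for Sema3a at 20.5, against 4.85 to 5.48, and for Sema7a at 3.91, against 1.42 to 1.83. The column named cKO S4 stood out for Plxna3 at 17.1, against 3.15 to 4.12, and was low for Sema4d at 17.9, against 20.3 to 20.8. The column named cKO S8 was high for Nrp2 at 10.2, against 3.66 to 4.61. The column named control S6 was high for Plxnb3 at 30.5, against 8.58 to 12.2, and for Sema4f at 1.08, against 0.0540 to 0.124. The column named cKO S5 was closest in counts to library cKO S4, and the column named cKO S8 to library cKO S5. The column named cKO S4 was closest to library cKO S8, and the column named control S6 to library control S7. Thus the flags for Nrp2, Plxnb3 and Sema4f fell on libraries also flagged in CPM. For Sema3a, Sema4d, Sema7a and Plxna3 no CPM library of the group passed this rule. Sema7a was at 9.71 CPM in cKO S4, against 3.51 to 4.62 in the rest of the cKO group.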

How the results depend on the processing

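No paired analysis was possible because the replicate numbers of the control libraries (S1, S2, S6 and S7) and of the cKO libraries (S3, S4, S5 and S8) are not shared. Of 522 values of the 28 members under 19 alternatives, 506 kept their direction and their side of the threshold, 5 moved Plxnb2 past the threshold and 11 changed direction. The count of members called, 0 with all libraries by edgeR, was 1 with DESeq2, with library totals, with genes kept at 1 or more counts in any library and with genes kept at 10 or more counts in every one, each time Plxnb2, and 0 to 1 when each library was left out. Its adjusted p was 0.0254, 0.0342 and 0.0255 in the last 3 in that order, 0.0536 with RLE size factors, 0.0603 with limma-voom and 0.075 with Xist level as a covariate, and its log2 fold change lay between 0.69 and 1.09 over all alternatives. The cause was not tested, beyond the number of genes that a filter leaves.

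Against 47 genes called over the whole table, DESeq2 gave 384, those 2 filters gave 87 and 84, Xist level as a covariate 28, and FPKM plus 0.1, FPKM plus 1 and FPKM plus 0.1 with a mean of at least 0.5 gave 9, 7 and 11. Leaving out each library gave 4 to 45. Other pathway genes called numbered 1, 3 with DESeq2, 0 with each of the 3 FPKM settings and 0 to 1 with each library left out. The direction changed for 6 members. Nrp2 was at −0.026 with Xist level as a covariate and Sema3e at 0.46 with limma-voom. With each library left out, log2 fold changes ran from −0.21 to 0.30 for Nrp2, −0.83 to 0.71 for Sema3e, −0.13 to 0.19 for Sema4b, −0.056 to 0.33 for Sema6a, −0.76 to 0.094 for Plxnb3 and −0.58 to 0.064 for Sema5a. Library totals moved the median of all genes from −0.02 to 0.09 and that of the members from −0.29 to −0.17, and over all alternatives the members' median lay between −0.39 without control S2 and −0.12 with FPKM plus 1. The 8 pathway genes beside Hapln1 with an unadjusted p under 0.05 by edgeR were run under the same alternatives after the data were seen. They kept their direction in all of them, and L1cam and Ptk7 were not run. Sema3b, Sema3f, Sema3g and Plxna4os1 had too few counts to be tested.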
